A study of Mus musculus with 10 samples.

Results

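The extracellular matrix of the lung is cut and remodelled by secreted and membrane-bound proteases, and 41 genes for such proteases and their inhibitors were compared in lungs with increased pulmonary blood flow (IncPBF) and in sham lungs. The 41 genes were taken by symbol from the 54532 genes of the deposited table. They comprised 15 matrix metalloproteinases (MMPs), the 4 tissue inhibitors of metalloproteinases (TIMPs), Reck, 5 ADAMs, 11 ADAMTS proteases, Adamtsl2, and 4 genes of plasminogen activation.

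Wild-type C57/BL6 pups of either sex were operated on at P7, and lung tissue was collected at P14. In the IncPBF group (5 lungs) a needle was passed from the abdominal aorta into the inferior vena cava, which opened a shunt, and the sham group (5 lungs) had the laparotomy alone. Bulk RNA-sequencing gave FPKM, a level that divides the fragments of a gene by its length in kilobases and by a measure of the size of the library. The RNA of all cells is pooled in it, so fewer cells of a type and less RNA per cell cannot be told apart.

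Totals over genes ran from 16103423 to 20318525 fragments per IncPBF lung and from 18171494 to 19400575 per sham lung. At this depth 1 fragment on a gene of 1 kb was worth 0.0482 to 0.0580 FPKM. The library size implied by these values was not the total over genes. It was above that total in every IncPBF lung and in sham lungs 3 and 4, and below it in sham lungs 1, 2 and 5. How it was set is not given in the sources used here. Scaling to equal totals, used below, replaces it. The lungs were not balanced for sex-linked expression. Xist, transcribed from the inactive X chromosome, was at 52.4 to 66.5 FPKM in IncPBF lungs 2 to 5, but at 0.0144 FPKM in IncPBF lung 1 and at 0.0770 FPKM or less in sham lungs. Ddx3y, on the Y chromosome, had the opposite pattern. IncPBF lung 1 was therefore the single IncPBF lung that matched the sham lungs in sex-linked expression. Sham lung 5 stood apart in the airway gene Scgb1a1, with 128 FPKM against 4802 to 11743 FPKM in the other lungs.

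MMPs are zinc proteases that are made as inactive proenzymes and cut collagens, proteoglycans and other matrix proteins. TIMPs bind to their active site, and Timp3, which is held in the matrix, also inhibits several ADAM and ADAMTS proteases. ADAMs are membrane-anchored sheddases, and ADAMTS proteases are secreted enzymes that cut proteoglycans such as versican, process procollagen or act on the microfibrils that carry elastin. Plasminogen activators turn plasminogen into plasmin, which in turn can activate MMPs. In the weeks after birth the alveolar walls are divided by new septa, a time of high matrix turnover.

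Among the 38 genes with a mean of at least 0.5 FPKM, 24 (63.2%) differed between the groups at an adjusted p of 0.05, against 32.3% of the 15388 genes tested by the same limma fit. Expression of 12 of the 38 was higher with IncPBF and that of 12 was lower, while among all genes tested 16.1% were higher and 16.2% lower. When every lung was scaled to the same total over genes, the split of the 38 genes was again 12 and 12, but 23.1% of all genes were higher and 11.6% lower. The groups did not overlap at all in 19 of the 38 (9 higher and 10 lower), against 23.2% of all genes tested. These counts include Mmp13, which passed the minimum level only through the sham lungs. A minimum mean of 1 FPKM leaves Mmp13 out. Of the 35 genes then tested, 12 were higher and 11 lower, against 17.4% and 18.1% of all genes. The groups were apart in 18 of the 35, against 24.8% of all genes. The median log2 fold change of the 38 genes was 0.08, close to the 0.01 of all genes, so the proteases and inhibitors had no common direction. The size of the called changes had a median of 0.65 on the log2 scale, against 0.41 among all called genes. Changes of at least 1.5-fold were seen in 6 of the genes that rose and 8 of those that fell, Mmp13 among the latter.

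**Figure D1:**
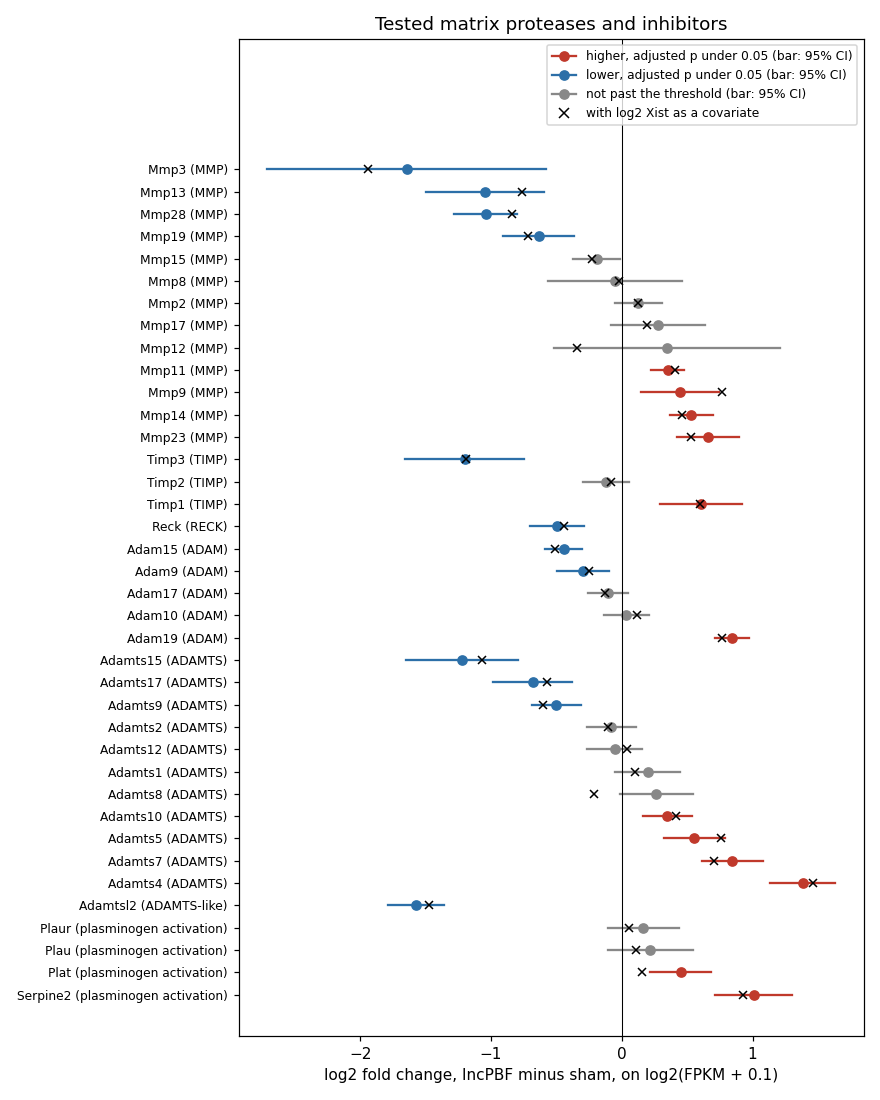
Log2 fold change of the 38 tested genes (x axis, IncPBF minus sham on log2(FPKM + 0.1)), by family, with the 95% confidence interval as a bar and, as a cross, the value with log2 Xist as a covariate. Adamts4, at 1.38, stands farthest to the right, and Mmp3, at -1.65, and Adamtsl2, at -1.57, stand farthest to the left.

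Mmp13, Mmp12, Mmp3 and Mmp8 lie in this order within 295972 bases of chromosome 9 (GRCm38), with other genes between them, and of these Mmp3 and Mmp13 fell in the IncPBF group while Mmp8 and Mmp12 did not pass the threshold. The 150 bases before the gene start are shown for these 4 genes, for Mmp14, the most abundant MMP that rose, and for Adamtsl2, the gene that fell most among those above 10 FPKM in both groups. Each runs 5′ to 3′ on the plus strand, which is the coding strand, and comes from RefSeq on GRCm38.p6. For Mmp12, with 2 starts there, the upstream one was used. Capitals mark 3 motifs searched on both strands, the AP-1 site TGANTCA, the GC box GGGCGG and the TATA box TATAAA.
Mmp3, chr9:7445672-7445821: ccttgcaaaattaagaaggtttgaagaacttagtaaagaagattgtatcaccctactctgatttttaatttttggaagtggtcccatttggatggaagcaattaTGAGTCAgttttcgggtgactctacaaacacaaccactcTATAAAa
Mmp13, chr9:7272364-7272513: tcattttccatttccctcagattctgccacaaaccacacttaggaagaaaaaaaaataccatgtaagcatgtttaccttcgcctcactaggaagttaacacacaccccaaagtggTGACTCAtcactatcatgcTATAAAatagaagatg
Mmp8, chr9:7558279-7558428: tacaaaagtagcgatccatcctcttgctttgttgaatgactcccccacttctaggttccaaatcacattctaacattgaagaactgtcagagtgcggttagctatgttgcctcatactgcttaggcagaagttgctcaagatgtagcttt
Mmp12, chr9:7344247-7344396: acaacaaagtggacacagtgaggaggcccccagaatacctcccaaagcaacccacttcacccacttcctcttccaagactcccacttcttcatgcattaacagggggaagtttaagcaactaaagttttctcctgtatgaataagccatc
Mmp14, chr14:54431448-54431597: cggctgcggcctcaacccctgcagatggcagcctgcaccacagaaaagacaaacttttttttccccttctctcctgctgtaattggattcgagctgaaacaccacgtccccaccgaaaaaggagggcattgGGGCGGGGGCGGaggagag
Adamtsl2, chr2:27079229-27079378: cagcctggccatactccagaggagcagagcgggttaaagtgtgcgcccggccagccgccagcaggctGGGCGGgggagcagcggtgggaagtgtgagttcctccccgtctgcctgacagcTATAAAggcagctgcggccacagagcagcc

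The windows of Mmp3 and Mmp13 each held an AP-1 site and a TATA box, whose first bases lay 46 and 7 bases before the gene start in Mmp3 and 35 and 16 bases before it in Mmp13. Those of Mmp8 and Mmp12 held none of the 3 motifs. Mmp14 had 2 GC boxes that touch, 19 and 13 bases before its start, and Adamtsl2 had a GC box at 83 bases and a TATA box at 30. Of 32841 promoter windows of this length, 4.245% held the AP-1 letters, 28.63% the GC box and 7.573% the TATA box. A promoter was matched for 27 of the 41 genes, of which 3 held the AP-1 letters (Mmp3, Mmp13 and Plaur), 18 a GC box and 4 a TATA box. These matches describe letters and not binding.

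Among the 13 MMPs tested, 4 were higher in the IncPBF group, 4 were lower and 5 did not pass the threshold. Mmp14 and Mmp2 made up most of the MMP transcript level. Mmp14, a membrane-type collagenase that also activates pro-MMP2, was at 64.9, 67.5, 70.5, 71.1 and 67.2 FPKM in IncPBF lungs 1 to 5 and at 38.7, 50.8, 47.9, 48.8 and 50.8 FPKM in sham lungs. All 5 IncPBF lungs were above all 5 sham lungs, with sham lung 1 as the lowest. Its mean rose from 47.4 ± 5.01 FPKM (SD, n = 5) to 68.3 ± 2.56 FPKM (n = 5), a 1.44-fold difference (log2 fold change 0.53, SE 0.07, limma adjusted p = 0.000421). Mmp2, the gelatinase that MMP14 activates, was the most abundant MMP with 139.7 ± 7.95 FPKM with IncPBF and 128 ± 15.0 FPKM in sham lungs (log2 fold change 0.13, 95% CI -0.05 to 0.31, adjusted p = 0.268). Mmp14 thus took 22.6% ± 1.38 of the summed FPKM of the 15 MMPs with IncPBF and 17.2% ± 1.02 in sham lungs, and the share of Mmp2 was 46.3% and 46.5%.

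Mmp23, a membrane-associated MMP, was at 9.97, 11.0, 10.2, 12.2 and 10.5 FPKM in IncPBF lungs and at 5.88, 6.76, 9.01, 6.22 and 6.38 FPKM in sham lungs. The groups did not overlap, and sham lung 3 lay closest to the IncPBF lungs. The mean rose 1.57-fold, from 6.85 ± 1.25 to 10.8 ± 0.8998 FPKM (log2 fold change 0.66, SE 0.11, adjusted p = 0.00107). Mmp11, or stromelysin-3, rose 1.27-fold, from 19.6 to 25.0 FPKM (adjusted p = 0.00113). Mmp9, a gelatinase of neutrophils and other cells, rose 1.38-fold, from 1.41 to 1.95 FPKM (adjusted p = 0.0294), but its groups overlapped. Its call was lost when IncPBF lung 1, 2 or 4 or sham lung 2 or 5 was left out. It was also lost in the exact permutation test, which called only genes whose groups did not overlap.

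The largest fall in the family was that of Mmp3, or stromelysin-1, which cuts many matrix proteins and activates other MMPs. It was at 0.574, 1.87, 0.150, 1.45 and 0.882 FPKM in IncPBF lungs and at 3.46, 4.01, 2.18, 1.66 and 2.49 FPKM in sham lungs. IncPBF lung 2 lay above sham lung 4, and the counts behind these values were small, with 5 to 63 fragments in IncPBF lungs and 57 to 136 in sham lungs. The mean was 0.984 ± 0.683 against 2.76 ± 0.959 FPKM, 2.80-fold lower in the IncPBF group (log2 fold change -1.65, SE 0.49, adjusted p = 0.0241). The call was lost without IncPBF lung 1, sham lung 1 or sham lung 2. Mmp13, the main interstitial collagenase of the mouse, was at 0.600, 0.519, 0.587, 0.434 and 0.306 FPKM in IncPBF lungs and at 1.42, 1.17, 0.835, 0.979 and 1.16 FPKM in sham lungs. Here the groups were apart, at 17 to 31 fragments against 42 to 68, and the mean fell 2.27-fold (log2 fold change -1.05, SE 0.21, adjusted p = 0.00294). Its mean of 0.489 FPKM with IncPBF was below the minimum of 0.5, so that Mmp13 was tested only through its level in sham lungs, 1.11 FPKM. Mmp8 of the same cluster, the neutrophil collagenase, had 1.18 ± 0.369 FPKM with IncPBF and 1.22 ± 0.371 FPKM in sham lungs (95% CI of the log2 fold change -0.57 to 0.46). Mmp12, the macrophage elastase, ranged from 0.248 to 1.35 FPKM among the IncPBF lungs and from 0.286 to 0.639 FPKM among the sham lungs, a spread too wide to read a difference (95% CI -0.52 to 1.21). Mmp12 passed the minimum level only through the IncPBF lungs, with a mean of 0.725 against 0.482 FPKM.

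Mmp28, an MMP of epithelia and macrophages known as epilysin, was at 5.67, 4.88, 4.44, 4.34 and 5.67 FPKM in IncPBF lungs and at 10.6, 10.2, 10.1, 8.52 and 12.7 FPKM in sham lungs. The highest IncPBF lung was well below the lowest sham lung. The mean fell 2.08-fold, from 10.4 ± 1.502 to 5.00 ± 0.645 FPKM (log2 fold change -1.04, SE 0.11, adjusted p = 7.83e-05), the lowest adjusted p among the MMPs. The antisense gene 1700020L24Rik, which shares 12.0% of the exon bases of Mmp28, was at 5.41 FPKM with IncPBF and 10.5 FPKM in sham lungs. Whether counting used the strand is not given in the sources used here, so reads of the 2 genes cannot be told apart where they overlap. Mmp19 was at 3.89, 4.76, 4.23, 3.72 and 4.69 FPKM in IncPBF lungs and at 7.36, 7.42, 4.80, 6.66 and 7.43 FPKM in sham lungs. Sham lung 3 was just above the highest IncPBF lung, and the mean fell 1.58-fold, from 6.73 ± 1.13 to 4.26 ± 0.462 FPKM (log2 fold change -0.64, SE 0.12, adjusted p = 0.00288). Mmp19 shares 22.3% of its exon bases with Tmem198b, which was at 3.15 FPKM with IncPBF and 3.77 FPKM in sham lungs. The membrane-type Mmp15 (42.3 against 48.3 FPKM, adjusted p = 0.0966) and Mmp17 (0.962 against 0.787 FPKM, adjusted p = 0.221) did not pass. Mmp16, with 20 to 41 fragments per lung, and Mmp25, with 8 to 26, were below the minimum level and were not tested.

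The inhibitors changed in opposite directions. Timp3 was at 29.8, 35.3, 27.1, 28.0 and 36.2 FPKM in IncPBF lungs and at 107, 75.2, 45.5, 56.2 and 90.9 FPKM in sham lungs. The sham lungs were widely spread, but the lowest of them, sham lung 3, was still above all IncPBF lungs. The mean fell 2.40-fold, from 75.0 ± 25.1 to 31.3 ± 4.21 FPKM (log2 fold change -1.20, SE 0.21, adjusted p = 0.00143). Without any 1 lung its log2 fold change stayed between -1.36 and -1.05. Timp3 lies within the Syn3 gene on the opposite strand and shares 21.3% of its exon bases with it, but Syn3 itself was at 0.0701 and 0.0914 FPKM.

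Timp1, the inducible inhibitor on chromosome X, was at 4.08, 4.15, 3.60, 3.85 and 5.15 FPKM in IncPBF lungs and at 2.07, 2.81, 2.93, 2.30 and 3.56 FPKM in sham lungs. The groups were separated by a narrow margin between sham lung 5 and IncPBF lung 3, and the Xist-low IncPBF lung 1 was also above all sham lungs. These values rest on 59 to 95 fragments per IncPBF lung and 33 to 55 per sham lung. The mean rose 1.52-fold, from 2.73 ± 0.582 to 4.16 ± 0.593 FPKM (log2 fold change 0.60, SE 0.14, adjusted p = 0.00817). Timp2, which at the cell surface takes part in the activation of pro-MMP2 by MMP14, was the most abundant inhibitor with 211 ± 10.3 FPKM with IncPBF and 229.6 ± 26.8 FPKM in sham lungs (95% CI of the log2 fold change -0.30 to 0.06, adjusted p = 0.288). Timp4 was below the minimum level and was not tested. It was at 0.158, 0.335, 0.202, 0.324 and 0.147 FPKM in IncPBF lungs and at 0.605, 0.450, 0.883, 0.417 and 0.429 FPKM in sham lungs, so that all IncPBF lungs were below all sham lungs at 18 to 37 against 44 to 98 fragments. Reck, a membrane-anchored inhibitor of MMP14, MMP2 and MMP9, fell 1.42-fold, from 30.1 to 21.2 FPKM, and its groups did not overlap (adjusted p = 0.00265).

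**Figure D2:**
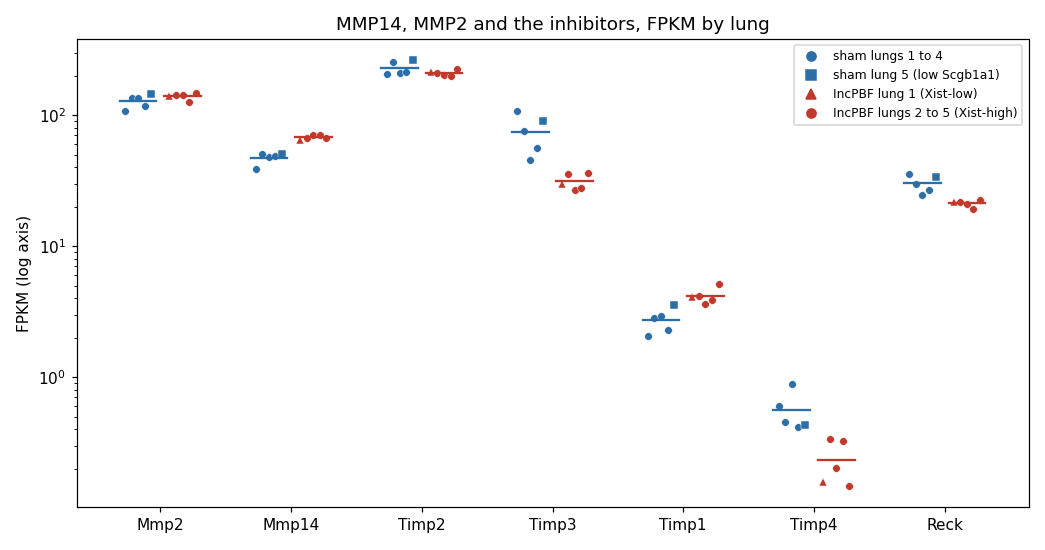
FPKM (log axis) of Mmp2, Mmp14, the 4 TIMPs and Reck in each lung, blue for sham and red for IncPBF, with a bar at each group mean. The IncPBF lungs lie above the sham lungs for Mmp14 and Timp1 and below them for Timp3, Timp4 and Reck, while the groups overlap for Mmp2 and Timp2.

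The makeup of the inhibitor transcripts differed accordingly. The summed FPKM of the 4 TIMPs was 246 ± 14.4 in the IncPBF group (232.9 to 268) and 308 ± 41.4 in sham lungs (260.3 to 358). Timp3 supplied 12.7% ± 1.08 of this sum in the IncPBF group against 24.0% ± 6.18 in sham lungs, and Timp2 85.6% ± 1.17 against 74.9% ± 6.01. The summed FPKM of the 15 MMPs was 302 ± 11.2 with IncPBF and 276 ± 23.9 in sham lungs. The MMP sum divided by the TIMP sum was 1.23 ± 0.0572 in the IncPBF group, from 1.17 to 1.32, and 0.906 ± 0.117 in sham lungs, from 0.767 to 1.07. The ratio of Mmp14 to Reck was 3.24 ± 0.295 against 1.61 ± 0.332. In both ratios every IncPBF lung was above every sham lung. For Mmp14 over Reck this follows from the separation of each gene, in opposite directions, and is no further result. The ratio of the sums includes Mmp14 and Timp3, which each separated the groups, so it is not an independent result either. The TIMP sums overlapped between the groups. So did the MMP sums, at 285 to 313 FPKM with IncPBF and 244 to 303 FPKM in sham lungs. Sums and ratios of transcript levels were not tested, and they say nothing of the amount or activity of the proteins.

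Of the 5 ADAMs, Adam19 rose, Adam9 and Adam15 fell, and the broad sheddases Adam10 and Adam17 did not pass. Adam19, which cleaves neuregulin and is needed for heart development, was at 23.7, 25.0, 27.9, 23.4 and 25.0 FPKM in IncPBF lungs and at 13.7, 13.6, 13.1, 14.8 and 14.2 FPKM in sham lungs. Both groups were tight and far apart. The mean rose 1.80-fold, from 13.9 ± 0.659 to 25.0 ± 1.79 FPKM (log2 fold change 0.84, SE 0.06, adjusted p = 6.87e-06). Adam15, an ADAM with an integrin-binding disintegrin domain, fell 1.37-fold, from 22.3 to 16.3 FPKM, with no overlap (adjusted p = 0.000523). It shares 20.6% of its exon bases with 4731419I09Rik, which was at 0.130 and 0.0933 FPKM. Adam9 fell 1.23-fold, from 52.0 to 42.3 FPKM (adjusted p = 0.0288), its groups overlapped, and the call was lost without IncPBF lung 1, 3 or 4 or sham lung 1, 2 or 5. Adam10 had 42.8 ± 4.16 FPKM with IncPBF and 41.7 ± 3.29 FPKM in sham lungs (95% CI of the log2 fold change -0.14 to 0.21), and Adam17 had 14.3 ± 0.731 and 15.4 ± 1.55 FPKM (95% CI -0.26 to 0.05).

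Among the 11 ADAMTS proteases 4 rose and 3 fell. The largest rise of all 38 genes was that of Adamts4, an aggrecanase that also cuts versican. It was at 2.86, 3.01, 2.55, 2.72 and 2.61 FPKM in IncPBF lungs and at 0.915, 0.982, 0.828, 1.01 and 1.27 FPKM in sham lungs, or 226 to 271 fragments against 75 to 106. The lowest IncPBF lung was far above the highest sham lung. The mean rose 2.75-fold, from 1.00 ± 0.164 to 2.75 ± 0.184 FPKM (log2 fold change 1.38, SE 0.11, adjusted p = 1.74e-05). The related aggrecanase and versicanase Adamts5 rose 1.49-fold, from 2.97 to 4.43 FPKM, with all IncPBF lungs above all sham lungs (adjusted p = 0.00261). Versican itself, Vcan, was at 7.05 to 9.12 FPKM in IncPBF lungs and at 1.62 to 3.39 FPKM in sham lungs.

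Adamts7, which cuts the cartilage matrix protein COMP and is known from vascular smooth muscle, was at 4.67, 5.15, 6.01, 5.05 and 5.01 FPKM in IncPBF lungs and at 2.41, 3.26, 3.05, 2.39 and 3.16 FPKM in sham lungs. There was no overlap, and IncPBF lung 3 was the highest. The mean rose 1.81-fold, from 2.86 ± 0.422 to 5.18 ± 0.501 FPKM (log2 fold change 0.84, SE 0.11, adjusted p = 0.000207). Adamts10, a protease of fibrillin microfibrils, rose 1.27-fold, from 61.9 to 78.5 FPKM (adjusted p = 0.0103), with overlap of the groups.

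Of the other versican-cutting members, Adamts15 and Adamts9 fell. Adamts15 was at 12.1, 10.9, 11.0, 9.75 and 12.7 FPKM in IncPBF lungs and at 33.3, 23.6, 21.1, 18.5 and 41.8 FPKM in sham lungs. All IncPBF lungs were below all sham lungs, and sham lungs 5 and 1 were the highest. The mean fell 2.45-fold, from 27.7 ± 9.71 to 11.3 ± 1.15 FPKM (log2 fold change -1.23, SE 0.19, adjusted p = 0.000923). Adamts9 fell 1.42-fold, from 13.7 to 9.60 FPKM, with no overlap (adjusted p = 0.0013). Adamts1, the most abundant of the proteoglycan-cutting group, had 66.9 ± 8.78 against 58.5 ± 8.32 FPKM (95% CI of the log2 fold change -0.05 to 0.44), with IncPBF lung 2 at 82.2 FPKM above all others.

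Some of these genes are neighbours. Adamts15 and Adamts8 lie 20109 bases apart on chromosome 9, and Adamts1 and Adamts5 53059 bases apart on chromosome 16. Adamts8 was at 19.4, 27.7, 33.9, 27.8 and 29.0 FPKM in IncPBF lungs and at 21.2, 19.8, 23.4, 24.0 and 24.9 FPKM in sham lungs. IncPBF lungs 2 to 5 were above all sham lungs while IncPBF lung 1, the Xist-low one, was below them all, and the difference did not pass (adjusted p = 0.137). Without IncPBF lung 1 it did pass, with a log2 fold change of 0.38, and with Xist as a covariate its sign changed to -0.21.

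Adamts17 and Adamtsl2, which like Adamts10 act on or bind to fibrillin microfibrils, both fell. Adamts17 was at 27.5, 27.6, 25.0, 21.8 and 29.9 FPKM in IncPBF lungs and at 42.0, 46.2, 32.6, 36.7 and 57.0 FPKM in sham lungs. The groups were apart, and the mean fell 1.63-fold, from 42.9 ± 9.40 to 26.4 ± 3.06 FPKM (log2 fold change -0.68, SE 0.14, adjusted p = 0.00359). Adamtsl2, a protein with no protease domain that binds fibrillin and latent TGF-beta complexes, was at 19.3, 18.1, 16.3, 17.1 and 21.3 FPKM in IncPBF lungs and at 57.0, 56.3, 48.5, 48.4 and 65.6 FPKM in sham lungs. The highest IncPBF lung was less than any sham lung by a wide margin. The mean fell 2.99-fold, from 55.1 ± 7.12 to 18.4 ± 1.97 FPKM (log2 fold change -1.57, SE 0.10, adjusted p = 3.67e-06), the lowest adjusted p of the 38 genes. The procollagen peptidase Adamts2 (42.8 against 45.5 FPKM, 95% CI of the log2 fold change -0.27 to 0.11) and Adamts12 (9.16 against 9.54 FPKM, 95% CI -0.27 to 0.15) did not pass.

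**Figure D3:**
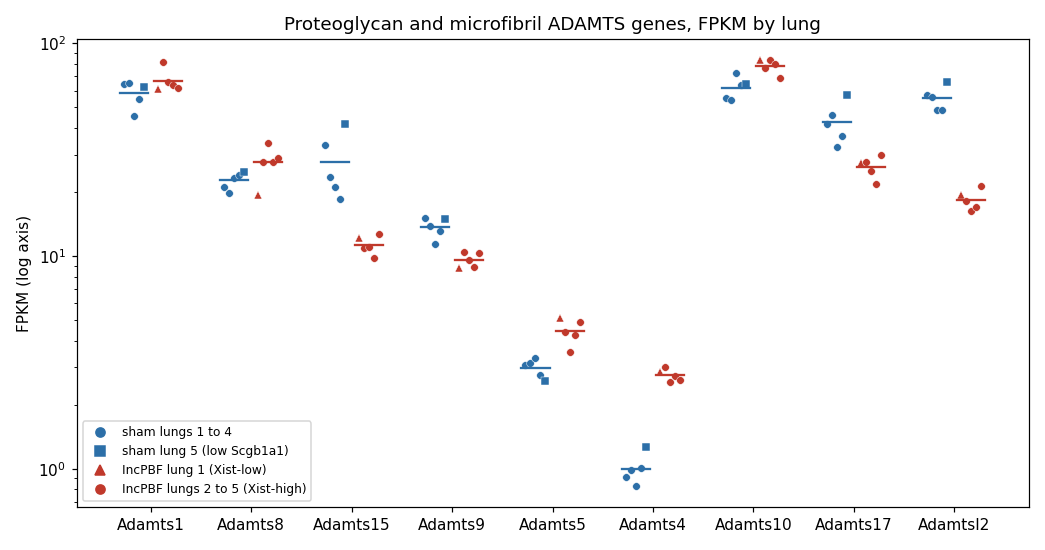
FPKM (log axis) of 8 ADAMTS genes and Adamtsl2 in each lung, blue for sham and red for IncPBF, with a bar at each group mean. Adamts4 and Adamts5 are higher in every IncPBF lung, Adamts15, Adamts9, Adamts17 and Adamtsl2 are lower in every IncPBF lung, and in Adamts8 IncPBF lung 1 lies apart from the other IncPBF lungs.

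In plasminogen activation 2 of 4 genes rose and none fell. Serpine2, or protease nexin-1, is a secreted serpin that inhibits thrombin, urokinase and plasmin. It was at 73.8, 77.1, 76.5, 75.4 and 80.2 FPKM in IncPBF lungs and at 26.9, 37.8, 52.5, 40.2 and 37.1 FPKM in sham lungs. The IncPBF lungs were closely alike and all above the sham lungs, among which sham lung 3 was the highest. The mean rose 1.97-fold, from 38.9 ± 9.15 to 76.6 ± 2.36 FPKM (log2 fold change 1.01, SE 0.14, adjusted p = 0.000325). Plat, the tissue-type activator, rose 1.37-fold, from 14.1 to 19.3 FPKM (adjusted p = 0.0088). Its groups overlapped in IncPBF lung 1, at 15.6 FPKM within the range of the sham lungs. The urokinase gene Plau (2.36 against 2.04 FPKM, 95% CI of the log2 fold change -0.11 to 0.55) and that of its receptor, Plaur (12.5 against 11.1 FPKM, 95% CI -0.11 to 0.44), did not pass.

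**Figure D4:**
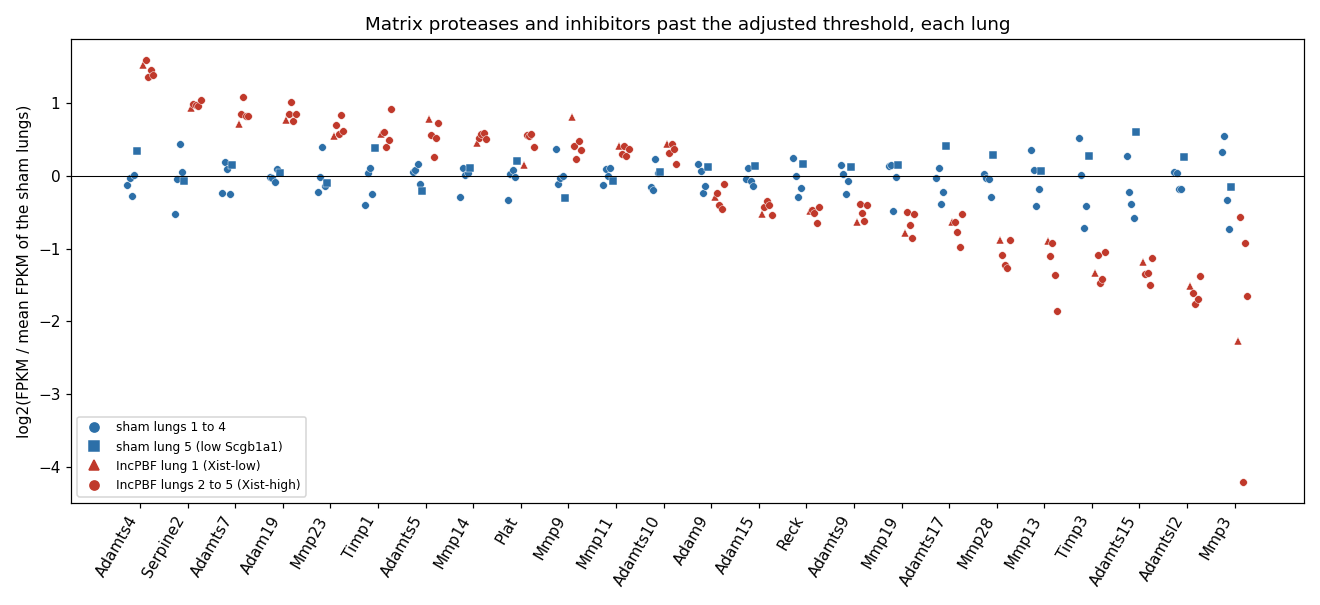
Log2 of the FPKM in each lung over the mean FPKM of the sham lungs (y axis) for the 24 genes past the adjusted threshold, ordered by fold change. IncPBF lung 1 (triangle) lies outside the sham range for 23 of the 24 genes, Plat being the exception, and all 5 IncPBF lungs lie outside it for 19.

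IncPBF lung 1 matched the sham lungs in Xist and Ddx3y. In 23 of the 24 called genes it lay beyond the sham range in the direction of the change. The share was 91.8% among all called genes, and 87.1% to 95.9% for the other IncPBF lungs. All lungs were in the fit that called these genes, so the count for IncPBF lung 1 is not a separate check. With log2 Xist as a covariate, which leaves the group effect to rest largely on this lung, no called gene changed its direction and 7 of the 38 remained past the adjusted threshold, against 4.82% of all genes tested. These were Adam19 (0.77 on the log2 scale, adjusted p = 0.00399), Adamts4 (1.46, adjusted p = 0.00461), Adamts5 (0.76, adjusted p = 0.037), Adamtsl2 (-1.48, adjusted p = 0.00211), Mmp28 (-0.84, adjusted p = 0.0319), Adam15 (-0.51, adjusted p = 0.0331) and Adamts9 (-0.60, adjusted p = 0.0464). The log2 fold change of Plat was 0.45 without and 0.15 with the covariate.

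A further 124 genes of related proteases, inhibitors, substrates and regulators were examined in 8 lists. Of the 95 tested, 23 were higher and 25 lower, against 16.1% and 16.2% of all genes tested. With an equal total per lung 28 were higher and 18 lower, against 23.1% and 11.6% of all genes. The counts of the single lists stand beside the same shares of all genes. The largest change in these lists was that of Prss35, a member of the trypsin family. It was at 49.3 to 55.3 FPKM in IncPBF lungs and 3.35 to 16.1 FPKM in sham lungs (log2 fold change 2.67, adjusted p = 0.000123). Htra1, a secreted serine protease of fibronectin and TGF-beta signalling, was at 67.7 to 78.3 against 21.9 to 31.1 FPKM (log2 fold change 1.48). In this list 2 of 12 were higher and 6 lower, the latter led by Prss23 (-0.65), Htra3 (-0.61) and the C1 inhibitor gene Serping1 (-0.58).

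Of 13 other ADAM, ADAMTS and MMP-related genes tested, 6 were higher, among them Adam33 (0.97), Adamts19 (0.88) and Adam23 (0.80), and 3 were lower, namely Adamts14 (-0.69), Adamts3 (-0.68) and the tolloid-like Tll1 (-0.63). Adamts14 and Adamts3 are procollagen peptidases like Adamts2, and Adamts3, at 0.416 against 0.729 FPKM, passed the minimum level only through the sham lungs. Mmp1a, Mmp1b, Mmp7, Mmp20 and Adamts16 had no fragment in any lung. Of the 5 tested relatives of Adamtsl2 without a protease domain, 4 were lower and none higher, while 16.2% of all genes tested were lower. They were led by Adamtsl4 (-0.89), Thsd4 (-0.38, limma adjusted p = 0.0485) and Adamtsl3 (-0.35, limma adjusted p = 0.0221). The groups overlapped for Thsd4 and Adamtsl3. In the remaining plasminogen and thrombin system, 1 of 8 was higher (Procr, 0.77) and 3 were lower, namely the thrombin receptor gene F2r (-0.70), the thrombomodulin gene Thbd (-0.58) and Serpinb6a (-0.24). Among 12 cathepsins and cystatins, the collagen-cutting Ctsk (0.54) and Cstb (0.36) were higher and Ctsh (-0.64) was lower.

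Genes that activate or clear the proteases were split, with 4 of 15 higher and 4 lower. Those that rose were led by Thbs1 (1.26), Thbs2 (0.96), whose product is known to bind MMP2 for uptake, and Cd44 (0.91), a cell-surface docking site of MMP9. Those that fell were led by Pcolce2 (-0.85), the clearance receptor Lrp1 (-0.53) and the proenzyme convertase Furin (-0.29). Of 19 matrix substrates 6 were higher, led by Tnc (2.19), Vcan (1.89) and Fbln5 (0.44), and 2 were lower, Col4a2 (-0.39) and Fn1 (-0.35). The last list held AP-1 and Ets transcription factor genes and the Runt-domain factor gene Runx1, which belongs to neither family. Of its 11 tested genes, Etv4 (2.47) and Runx1 (0.36) were higher and Fosl1 (-0.43) and Ets2 (-0.24) were lower.

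Markers of some cell types of the lung also differed, while those of others did not. Among all genes tested 16.1% were higher and 16.2% lower. Of 11 tested myofibroblast and smooth muscle markers 5 were higher and 2 lower, and their summed FPKM was 514 to 880.0 in IncPBF lungs and 347 to 512 in sham lungs. Of 11 markers of type I alveolar cells 9 were lower and none higher (1586 to 1715 against 1919 to 2622), of 13 endothelial markers 9 were lower and 1 higher (1327 to 1449.8 against 1433 to 1811), and of 7 mesothelial markers all were lower (98.9 to 129 against 142 to 228). Fibroblast markers were split, with 4 of 14 higher and 4 lower (1617 to 1913 against 1703 to 2041), as were those of pericytes, with 2 of 10 higher and 2 lower (459 to 497 against 399.5 to 495). For the leukocytes that carry Mmp8, Mmp9 and Mmp12, none of 9 neutrophil markers passed (42.5 to 84.2 against 33.9 to 71.4, Mmp8 being one of them), 2 of 10 alveolar macrophage markers were lower (117 to 465 against 141 to 438), and 1 of 10 markers of monocytes and interstitial macrophages was higher and 3 lower (147 to 187 against 224 to 259.8). Of type II alveolar cell markers 7 of 11 were lower, of erythroid ones 5 of 7 were lower, and of platelet and mast cell ones 2 of 8 were higher and 1 was lower. No airway (10), lymphocyte (9) or cardiac muscle (6) marker passed, and the 1 cartilage marker tested, Col9a2, was higher. No marker was at 0 in every lung. The part of these markers in the protease changes was not tested.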

How the data were processed

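The methods name a column kit for RNA isolation and the labels name Trizol. NEBNext libraries were sequenced on a NovaSeq instrument. The authors deposited FPKM per gene with the gene length that enters it. The submitters' processing notes name Bowtie 0.12.2 and the builds hg38, GRCm38 and mm10 without a role, and the aligner, counter and strand setting of this table are not given in the sources used here. The IncPBF columns are named for volume overload rather than by sample title, and were assigned to the group on that ground. The FPKM were multiplied by gene length to recover whole fragments, which succeeded for 100% of the values with a tolerance of 0.01 fragments. No lungs were duplicates.

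Genes with a mean of at least 0.5 FPKM (15388) were compared between the groups in R 4.3.3 by limma 3.58.1, with lmFit on log2(FPKM + 0.1), eBayes with its trend option and Benjamini-Hochberg adjustment over all genes tested. Fold changes on this scale understate those of low genes. The fit was tested on simulated data. No covariate was used, since the labels give no litter, batch or sex, and p-values measure only the spread between these lungs. All SDs are over 5 lungs. Exact permutation tests used the 252 assignments of the lungs and could not go below p = 0.00794. Sums and figures were made in Python 3.11.15 (pandas 2.3.3, matplotlib 3.10.9), and promoters came from RefSeq on GRCm38.p6.

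The 41 genes, the other lists and the alternatives were chosen with earlier results of these data known. All 41 are named. Called genes that changed at least 1.5-fold are given by lung, and from each other list up to 3 rises and 3 falls past the threshold. Mmp14, Adamts8 and Timp4 were given by lung, and the 6 promoters chosen, after the values were seen. Alternatives were the pseudocount (1 or 0.01), the filter (a mean of at least 1 FPKM, or none), the scaling (equal total per lung, median of gene ratios, quantile normalization), eBayes without a trend, log2 Xist as a covariate, limma-voom on recovered fragments, an exact permutation test per gene, and each lung left out.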

Additional observations from a re-analysis of the deposited data

Results flagged for a closer look

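Within each group of 5 lungs, the highest or lowest lung was compared with its nearest neighbour for the 41 genes, and in 3 of 82 groups the gap was large against the range of the group (Dixon's criterion), where chance flags about 1 in 20. Mmp14 in sham lung 1 was at 38.7 FPKM, with the other sham lungs at 47.9 to 50.8 FPKM, and without that lung the log2 fold change of Mmp14 was 0.46. Mmp23 in sham lung 3 was at 9.01 FPKM, with the others at 5.88 to 6.76 FPKM, and without that lung its log2 fold change was 0.76. Adamts1 in IncPBF lung 2 was at 82.2 FPKM, with the others at 60.8 to 66.1 FPKM, and without that lung its log2 fold change was 0.12.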

How the results depend on the processing

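Of the 24 called genes, 24 were called with the other pseudocounts, the other scalings, eBayes without a trend and limma-voom, 23 with a mean of at least 1 FPKM, 22 without a filter (21 of them the same genes), 19 by the exact permutation test and 21 to 24 without any 1 lung. In the exact test only genes at its smallest p passed after adjustment. Those are the genes whose groups do not overlap, 3563 of all genes tested by either count. Its calls therefore restate the overlap and are no separate check. With log2 Xist as a covariate 3 were higher and 4 lower. Without any 1 lung 11 to 12 were higher, 10 to 12 were lower, and the groups did not overlap in 19 to 21. Mmp3, Mmp9 and Adam9 lost their calls under the covariate, without a filter, under exact permutation and without some lungs, and Plat and Adamts10 under the covariate and exact permutation. Of the genes of the other lists, 7 were higher and 6 lower with the covariate, against 23 and 25. The number lower was 16 without a filter and 14 by exact permutation. Without any 1 lung 21 to 25 were higher and 15 to 29 lower, with 16 lower without IncPBF lung 1, 16 without sham lung 2 and 15 without sham lung 5. No called gene changed direction under any of these alternatives. Of those not called, Mmp8 became 0.0226 with an equal total per lung and ran from -0.19 to 0.10 without any 1 lung (0.10 without IncPBF lung 3 and 0.09 without sham lung 1), and Mmp12 became -0.35 and Adamts8 -0.21 with the covariate. Adam10 ran from -0.014 to 0.0941 without any 1 lung (-0.0022 without IncPBF lung 5 and -0.014 without sham lung 3), and Adamts12 became 0.0233 with an equal total and 0.0374 with the covariate. The cause was not tested. An equal total per lung moved the median log2 fold change of all genes from 0.01 to 0.09. No paired analysis was possible because the IncPBF columns carry no number that the labels tie to a sample, so the replicate block was not run. Depth limits Mmp3, Mmp8, Mmp12, Mmp13, Mmp16, Mmp25, Timp1 and Timp4, with fewer than 100 fragments in most lungs.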

Other observations

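The spread of most of the proteases and inhibitors was wider among the sham lungs, as was that of most genes tested. The coefficient of variation was higher in the sham group in 30 of the 38 tested genes (78.9%), against 66.1% of all genes tested. For Serpine2 it was 23.5% in the sham group and 3.08% in the IncPBF group, for Adamts15 35.1% and 10.2%, and for Timp3 33.5% and 13.4%. Other genes went the other way, among them Mmp3 (34.8% in the sham group and 69.4% in the IncPBF group), Mmp12 (29.5% and 62.1%) and Adamts8 (9.21% and 18.9%).

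The sham lung closest to the mean of the IncPBF group was sham lung 3 in 11 of the 24 called genes. Sham lung 1 was the farthest in 11 of the 24 and sham lung 5 in 8. These shares were near those of all called genes, in which sham lung 3 was the closest in 40.3%, and sham lungs 1 and 5 were the farthest in 42.2% and 29.96%.

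Adamts4 and Timp3, whose product inhibits the aggrecanases, moved apart. The ratio of their FPKM was 0.0890 ± 0.0105 in the IncPBF group, from 0.0722 to 0.0971, and 0.0143 ± 0.00400 in the sham group, from 0.00852 to 0.0182. Each gene separated the groups by itself, in opposite directions, so the separation of the ratio is no further result. Aggrecan itself, Acan, was at 0.0277 to 0.0774 FPKM in the IncPBF lungs and at 0.0569 to 0.157 FPKM in the sham lungs, too low to be tested.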
